A study of Mus musculus with 2 samples.

Results

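Nucleoporins, the proteins of the nuclear pore complex, and karyopherins, the receptors that carry cargo through it, were examined in regenerating livers of WT and PPARβ-null (KO) mice. The genes were found by symbol, as Nup or as Kpna or Kpnb followed by a number, which gave 20 nucleoporin and 7 karyopherin genes among the 33224 gene symbols of the deposited table. None of the 28 rows that hold them was marked as a failed estimate, and rows of the same symbol were summed.

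Each genotype gave 1 liver RNA-seq library, from male C57BL/6 mice aged 4 months by the sample labels, while the design text of the series gives another age. Both libraries come from livers taken 48 hr after partial hepatectomy (PH). The labels do not name the surgery, which is described in the paper. The WT mice carried no targeted allele, and the KO mice were PPARβ-null. The sources used here do not say whether the RNA came from 1 mouse or from a pool. With 1 library per genotype there is no spread between mice, so no difference below has a replicate check and no test across samples was made.

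The pore is a channel through both nuclear membranes. Its outer rings are built from Y-shaped complexes and surround an inner ring, and both make up the scaffold. Nucleoporins rich in phenylalanine and glycine repeats fill the central channel, while filaments reach into the cytoplasm and a basket reaches into the nucleus. Importin α proteins (the Kpna genes) recognise the classical nuclear localisation signal of a cargo and bind importin β (Kpnb1), which moves the complex through the channel until Ran loaded with GTP releases it. Cells that divide take the pore and the lamina apart in mitosis and build them again, and they make new pores before division.

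All 24 genes that reached a mean FPKM (mapped fragments per kilobase of exon after scaling to the library size) of 1 were lower in the KO library, and 13 of them were lower by more than 1.5-fold. Across all 11723 genes that passed the same filter, 75.6% were lower in KO and 19.9% were lower by more than 1.5-fold. The difference exceeded 2-fold in 6 of the 24, Kpna2, Kpnb1, Nup107, Nup43, Nup85 and Nup93, against 8.69% of all genes. No nucleoporin or karyopherin that passed was higher in KO by more than 1.5-fold, against 4.2% of all genes. On the log2 scale the median KO/WT ratio of the 24, taken with a pseudocount of 0.1 FPKM, was -0.68, and that of all genes was -0.24. The largest differences were those of Kpna2 (WT/KO ratio 3.38) and Nup107 (3.25).

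Most genes were somewhat lower in the KO library, so each ratio has to be read against that shift. The median WT/KO ratio of all genes was 1.18. After the KO library was centred on the median of all genes, 9 of the 24 genes stayed lower by more than 1.5-fold, against 12.1% of all genes. These were Kpna2, Kpnb1, Nup107, Nup43, Nup85, Nup93, Nup155, Nup205 and Nup210. Over all genes the split past 1.5-fold was 2330 lower and 492 higher as deposited, and 1415 lower and 856 higher after centring.

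The state of the tissue differed widely between the libraries, and its part in the results was not tested. All 12 proliferation markers were lower in KO by more than 2-fold, and Bub1 was listed at 0 there. The most abundant were Pcna, the sliding clamp of DNA replication, at 66.8 FPKM in WT against 13.02 in KO, Cdk1, the mitotic kinase, with 41.9 and 0.434, and Birc5 with 25.5 and 0.111. Hepatocyte markers were abundant in both libraries, Serpina1c, Apoa1 and Cyp3a11 above all, with a summed FPKM of 20027 in WT and 18727 in KO. Of these 10 genes 4 were lower and 2 higher in KO by more than 1.5-fold. Of the 8 macrophage markers 7 were lower past that fold, and their sum was 71.2 in WT and 41.1 in KO. The same held for 4 of 8 stellate cell genes (sums 108 and 64.4), 5 of 8 endothelial genes (65.9 and 50.9), 3 of 3 neutrophil genes that passed (14.8 and 7.89) and 1 of 3 cholangiocyte genes that passed (30.1 and 26.2). Among erythroid genes 3 passed, of which 1 was higher and none lower past that fold (295 and 252). None of the 8 lymphocyte markers passed (1.32 and 0.866). Each sum covers every gene of its list, also those that did not pass. The most abundant genes of these lists were Cd5l, Clec4f and Lyz2 of macrophages, Dcn, Col3a1 and Reln of stellate cells, Clec4g, Eng and Stab2 of endothelium, S100a8, S100a9 and Retnlg of neutrophils, Spp1, Sox9 and Krt19 of cholangiocytes, Hba-a1, Hbb-b1 and Alas2 of erythroid cells, and Ptprc, Cd79b and Cd79a of lymphocytes. The values of Clec4g and Eng, both part of the endothelial sum, belong to loci shared with other genes. The neutrophil genes Mpo, Ly6g and Camp were listed at 0 in both libraries. In whole liver, fewer cells of a type and less RNA per cell cannot be told apart. The targeted gene, Ppard, stood at 2.67 FPKM in WT against 2.42 in KO, so the level of its whole locus did not separate the libraries.

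The karyopherins come first. Kpna2 (importin α1, chromosome 11, 106849942 to 106860855 on NCBI37, minus strand) is the importin α known for high levels in dividing cells. It stood at 59.1 FPKM in WT against 17.5 in KO. Its ratio of 3.38 had a 95% counting interval from 3.21 to 3.56, and 3.51% of all genes had a larger one. The counting interval rests on the number of fragments estimated behind each value, about 6563 in WT and 1973 in KO for this gene, and covers counting error only.

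Kpnb1 (importin β1, chromosome 11, 97021028 to 97049195) is the partner that every importin α needs. It stood at 52.0 FPKM in WT against 25.2 in KO, a ratio of 2.07 (95% counting interval 2.01 to 2.12). Among the 7 karyopherin genes found by symbol, Kpna2 and Kpnb1 were thus the most abundant in the WT library, and Kpnb1 led in KO.

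The other importin α genes were closer between the libraries, and none reached the level of Kpnb1 in either of them. Kpna3 stood at 13.4 FPKM in WT against 9.18 in KO (ratio 1.46, counting interval 1.38 to 1.55). Kpna4, its close relative, had 19.0 and 13.2 (ratio 1.44, 1.39 to 1.48). Kpna1 and Kpna6 form another pair of relatives. Kpna1 stood at 16.0 FPKM in WT against 14.1 in KO, a ratio of 1.14 (1.09 to 1.19). Kpna6 had 12.2 in WT against 10.7, and its ratio was 1.14 as well (1.09 to 1.19). Both lay under the median ratio of all genes and turned to slightly higher in KO after centring. Kpna7, an importin α known from oocytes and early embryos, was listed at 0 in both libraries.

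**Figure D1:**
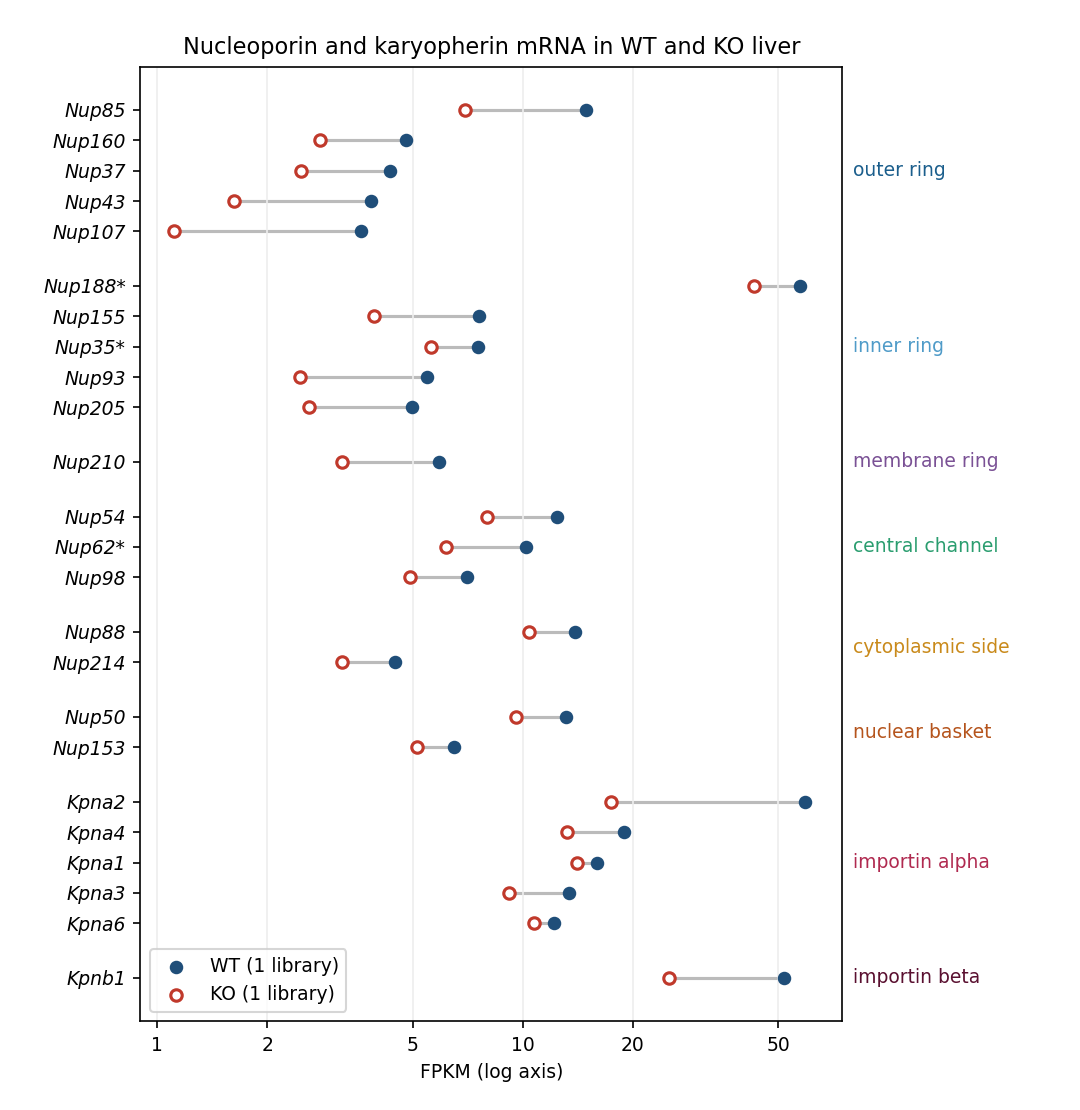
FPKM (log axis) of the 24 genes that passed the filter, with filled points for the WT library and open points for the KO library, 1 library each, grouped by place in the pore or by karyopherin type. Every open point lies left of its filled point, Kpna2 and Kpnb1 lie highest among the genes with a row of their own in WT, and an asterisk marks a value that belongs to a locus shared with other genes.

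The make-up of the importin α pool therefore differed, in a way that no scaling of the libraries can alter. Kpna2 made up 49.4% of the summed importin α FPKM in WT and 27.0% in KO. The share of Kpna1 was 13.4% in WT and 21.8% in KO, and that of Kpna6 10.2% and 16.6%. For Kpna4 the shares were 15.8% and 20.4%, and for Kpna3 11.2% and 14.2%. Kpna2 had the largest share in both libraries, and its lead over the next gene was smaller in KO. Within each pair of relatives the balance was nearly the same in both libraries, with a Kpna1/Kpna6 ratio of 1.31 in WT and 1.32 in KO and a Kpna3/Kpna4 ratio of 0.709 and 0.695. Without Kpna2 the summed FPKM of the importin α genes was 60.6 in WT against 47.2 in KO (ratio 1.28). Kpna2 stood at 1.14 times Kpnb1 in WT and at 0.695 times Kpnb1 in KO.

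**Figure D2:**
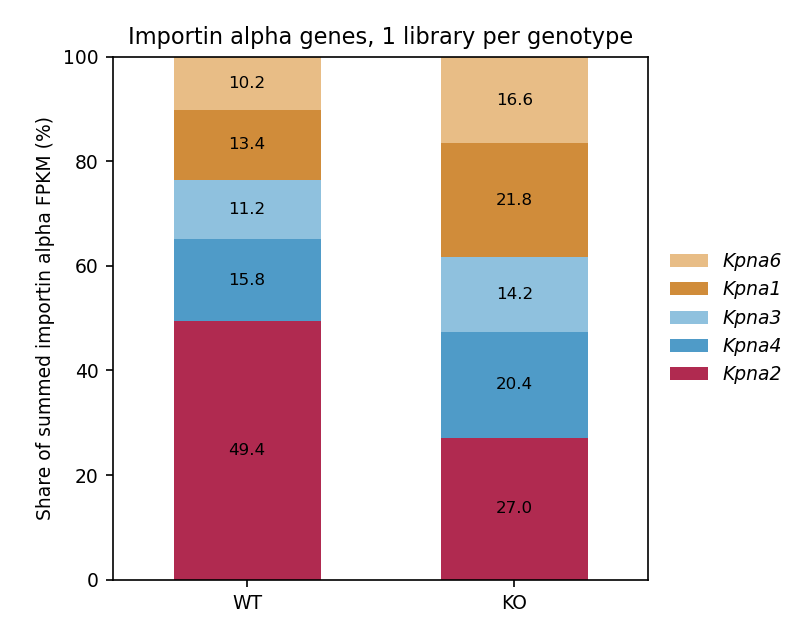
Share of each importin α gene in the summed importin α FPKM (%), with 1 bar for the WT and 1 for the KO library. Kpna2 holds 49.4% of the WT bar and 27.0% of the KO bar, and every other gene holds a larger share in KO; Kpna7 was listed at 0 and is not drawn.

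The Y-shaped complex of the outer ring had 7 measured genes, 5 with Nup symbols and, outside the symbol pattern, Seh1l and Sec13. The 5 Nup genes were all lower in KO by more than 1.5-fold, against 19.9% of all genes, with a median log2 KO/WT of -1.08. After centring 3 of these 5, Nup107, Nup43 and Nup85, stayed past 1.5-fold, against 12.1% of all genes. As deposited, Seh1l (19.6 FPKM in WT against 14.9 in KO, ratio 1.32) and Sec13 (42.2 and 34.9, 1.21) were not lower past that fold. Over these 7 genes the median was -0.78. Nup98, whose mRNA also encodes Nup96 of this complex, was left out and had a ratio of 1.44. So was Ahctf1, measured as a joint locus at 9.36 FPKM in WT against 8.67 in KO (ratio 1.08). Neither was lower past 1.5-fold. Nup107 (chromosome 10, 117187680 to 117229761, minus strand), which lies in the stem of the Y, stood at 3.62 FPKM in WT against 1.11 in KO. Its ratio was 3.25 (95% counting interval 2.76 to 3.86), from about 606 and 189 fragments. Nup43 stood at 3.84 FPKM in WT against 1.63 in KO (ratio 2.37, 1.96 to 2.88), and the assembled locus reaches over Pcmt1 and Lats1 as well. Nup43 and Nup85 sit on the same arm of the Y, and Nup37 and Nup160 on the other. Nup85 was the most abundant of the 5 Nup genes, at 14.9 FPKM in WT against 6.98 in KO (ratio 2.14, 1.97 to 2.32). Nup37 had 4.34 and 2.48 (1.75, 1.45 to 2.12). Nup160 had 4.79 and 2.80 (1.71, 1.57 to 1.86). The counting interval of Nup107 lay above those of Nup160, Nup37 and Nup85 and overlapped that of Nup43. Nup107 stood at 0.755 times Nup160 in WT and at 0.398 times Nup160 in KO, although both belong to the same complex.

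The inner ring holds the channel open and anchors its central nucleoporins. Nup93, its core linker, stood at 5.49 FPKM in WT against 2.47 in KO (ratio 2.22, counting interval 1.97 to 2.51). Nup155 had 7.59 and 3.93 (1.93, 1.81 to 2.06). Nup205 had 4.99 and 2.60 (1.92, 1.77 to 2.08). These 3 genes had rows of their own and were all lower in KO past 1.5-fold, against 19.9% of all genes. All 3 stayed past that fold after centring, against 12.1% of all genes. The other 2 genes of the ring could not be separated from their neighbours. Nup188 was assembled into a locus with Lrrc8a and Phyhd1, which stood at 57.4 FPKM in WT against 42.9 in KO. Nup35 shared its locus with Dusp19, with 7.55 and 5.60. Their ratios, 1.34 and 1.35, are those of the joint loci. Nup210 (gp210), a protein of the pore membrane, stood at 5.90 FPKM in WT against 3.20 in KO, a ratio of 1.84 (1.72 to 1.98).

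In the central channel the differences were smaller. Nup54 stood at 12.4 FPKM in WT against 7.99 in KO, summed over 2 rows (ratio 1.55, counting interval 1.44 to 1.68). The larger row had 11.8 and 7.25 and the smaller 0.630 and 0.743, so the smaller row was higher in KO. Nup62, the channel partner of Nup54, was measured only as a joint locus with Il4i1, with 10.2 in WT and 6.18 in KO (ratio 1.66). The assembled locus reaches over Atf5 as well, which also overlaps Nup62. Nup98, whose mRNA also encodes the scaffold protein Nup96, had 7.06 and 4.92 (1.44, 1.34 to 1.53).

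At the faces of the pore none of the 4 Nup genes was lower past 1.5-fold, against 19.9% of all genes. With 4 genes this count is near the share of all genes. Nup88 and Nup214 form a complex on the cytoplasmic side. Nup88 stood at 13.9 FPKM in WT against 10.4 in KO (ratio 1.34, counting interval 1.255 to 1.424), and Nup214 had 4.48 and 3.20 (1.40, 1.296 to 1.51). Of the basket proteins, Nup50 had 13.1 and 9.58 (1.37, 1.3003 to 1.44) and Nup153 had 6.50 and 5.13 (1.27, 1.19 to 1.35). The ratios of these 4 genes ran from 1.27 to 1.40, and those of the 9 Nup genes of the scaffold and membrane with a row of their own from 1.71 to 3.25. Nup98, grouped with the channel though its mRNA also encodes the scaffold protein Nup96, had 1.44, between these ranges. Outside the symbol pattern the scaffold genes Seh1l and Sec13 had ratios within or below the range of the faces. Other genes of the faces outside the pattern ranged wider, from 5.26 for Aaas down to 0.788 for Nupl2, with 1.33 for Tpr and 1.21 for Ranbp2. The genes nearest to the 1.5-fold line were Nup54 just past it and Kpna3 just short of it, and the counting intervals of both included 1.5.

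**Figure D3:**
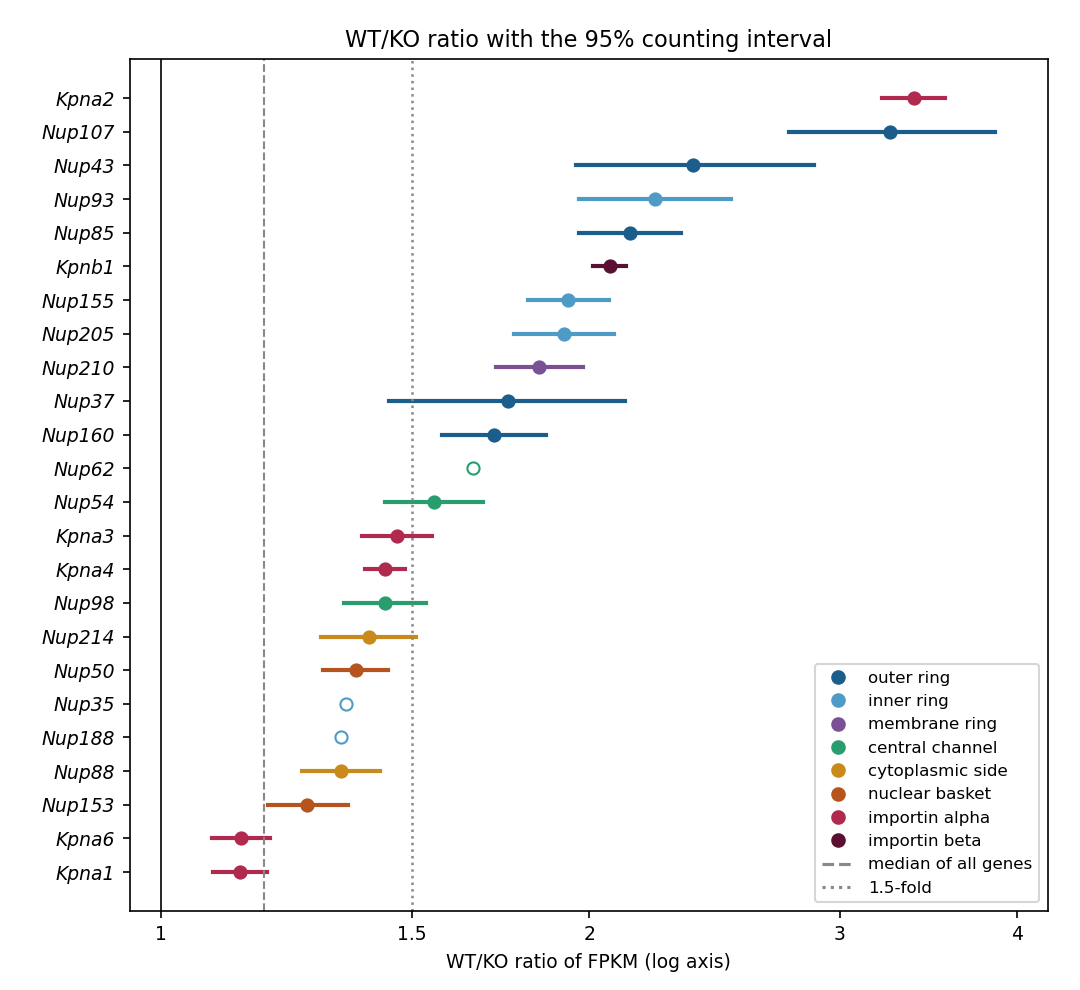
WT/KO ratio of FPKM (log axis) of the 24 genes, coloured by place in the pore or karyopherin type, with bars for the 95% counting interval, a solid line at 1, a dashed line at the median of all genes (1.18) and a dotted line at 1.5. Kpna2 and Nup107 lie above 3, the faces of the pore lie between 1.27 and 1.40, and open points without bars are joint loci.

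The remaining genes were low. Nup62cl, an X-linked relative of Nup62, stood at 0.170 FPKM in WT against 0.223 in KO, from about 18.3 and 24.5 fragments, and the counting interval of its ratio, 0.376 to 1.40, included 1. Nup210l, a relative of Nup210 known from testis, had 0.0147 and 0.0232, about 4.51 and 7.23 fragments. A difference was not detectable at this depth for either gene. Nup88 overlaps Rabep1, Nup43 overlaps Pcmt1, Nup214 overlaps Fam78a, and Kpnb1, Kpna1 and Nup214 overlap non-coding transcripts of the other strand. The assembled locus of Nup98 also holds Pgap2, which has a row of its own. The library kit named in the labels does not mark strand, so reads from such places can belong to either gene.

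Other genes of the pore, outside the symbol pattern, were lower in KO past 1.5-fold in 4 of 12 cases, against 19.9% of all genes. Their median log2 KO/WT was -0.41. The largest difference was that of Aaas, which encodes Aladin, at 12.2 FPKM in WT against 2.32 in KO (ratio 5.26). It was followed by Tmem48 (Ndc1), the membrane protein that holds Aladin at the pore, with 10.3 and 2.67 (3.85). Both ratios were above that of Kpna2. After centring only these 2 of the 12 genes stayed past 1.5-fold, against 12.1% of all genes. Pom121, another pore membrane protein, had 5.83 and 3.58 (1.63), and the locus of Nupl1 (Nup58), the third protein of the Nup54 and Nup62 complex, had 7.99 and 5.23 (1.53). Seh1l and Sec13, given above with the Y-shaped complex, also serve another complex outside the pore. The basket protein Tpr had 36.7 and 27.6 (1.33). Nupl2, at 1.16 and 1.47, was the gene of this list that was higher in KO. Ranbp2, the main protein of the cytoplasmic filaments, had 13.9 and 11.4 (1.21).

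The Ran cycle gives transport its direction, and 5 of its 6 measured genes were lower in KO past 1.5-fold, against 19.9% of all genes. Their median log2 KO/WT was -0.98 over the 6 genes. Ran itself stood at 81.8 FPKM in WT against 53.0 in KO (ratio 1.54). Rangap1, which triggers GTP hydrolysis by Ran in the cytoplasm, had 54.6 and 25.99 (2.10), and Ranbp1, its cofactor, had 35.4 and 17.9 (1.97). Rcc1, the exchange factor on chromatin, had 15.4 and 7.75 as a joint locus (1.99). Rangrf had 4.26 and 1.67 (2.56).

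Among receptors other than the Kpn genes the differences were smaller. Of 12 other import genes 3 were lower past 1.5-fold, Ipo9 (9.69 and 5.71, ratio 1.70), Ipo5 (16.4 and 10.2, 1.61) and Ipo11 (8.15 and 5.13, 1.59), and the median log2 KO/WT was -0.36. This count stands beside 19.9% of all genes. The most abundant of them, the joint locus of Ipo4, stood at 45.8 FPKM in WT against 44.1 in KO. Ipo7 had 29.5 and 21.9, and Tnpo3 had 16.0 and 13.5. The export genes had a median of -0.35, and 3 of 10 were lower past 1.5-fold, against 19.9% of all genes. Cse1l, which returns importin α to the cytoplasm, stood at 23.6 FPKM in WT against 12.2 in KO (ratio 1.93). Xpo1, the main export receptor, had 18.4 and 9.80 (1.88), and Nxt1 had 6.78 and 4.22 (1.61). The joint locus of Nxf1, the mRNA export receptor, had 29.2 and 32.5. After centring none of the 3 import genes stayed past 1.5-fold, while Cse1l and Xpo1 of the export genes and 4 of the 6 Ran cycle genes did, without Ran (1.31).

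**Figure D4:**
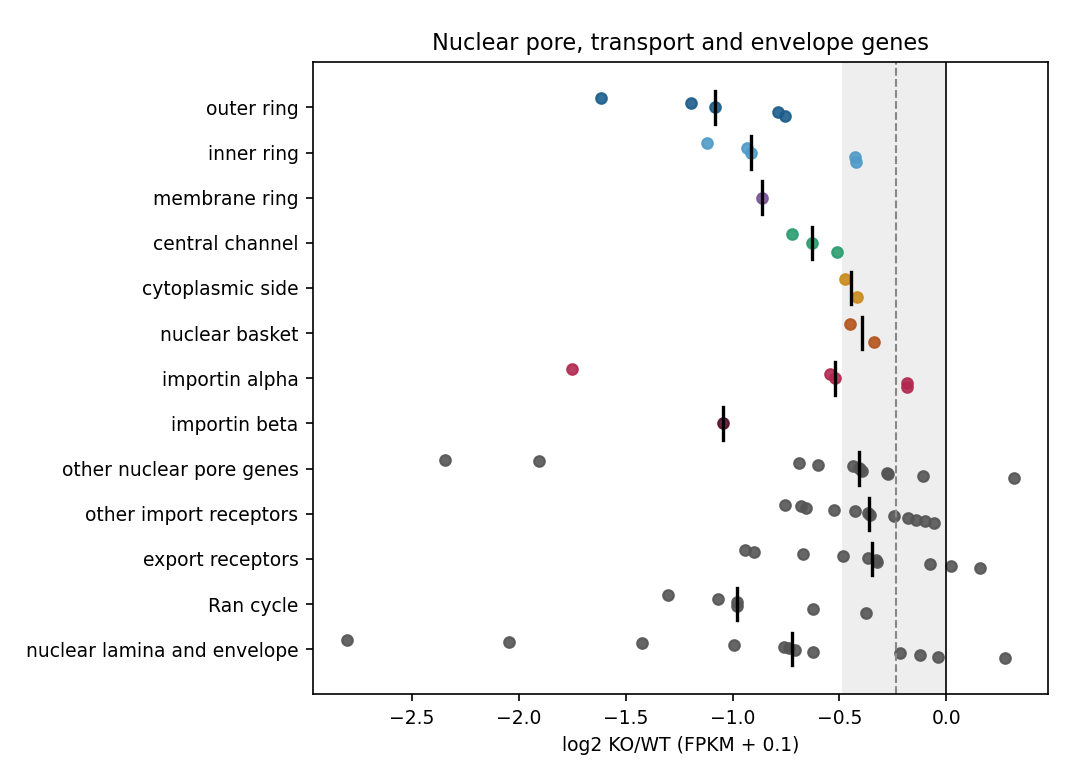
Log2 KO/WT of FPKM with a pseudocount of 0.1, for each gene that passed the filter, by list; a vertical bar marks the median of each list, the dashed line the median of all genes (-0.24) and the grey band their quartiles. The medians of the outer ring Nup genes and of the Ran cycle, and the value of Kpnb1, lie near -1. Medians of the import and export receptors lie within the quartile band, and Kpna2 stands apart from the other importin α genes. Single genes spread wider, from -1.30 to -0.37 in the Ran cycle and from -0.94 to 0.16 among export receptors.

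Promoter sequences are shown for the karyopherins with the largest differences, Kpna2 and Kpnb1, for Nup107, the nucleoporin with the largest difference, and for Kpna4, an importin α with a smaller one. They run from 250 bases before to 50 bases after the annotated start in RefSeq on GRCm38.p6, 5′ to 3′ on the strand of the gene. Capitals mark matches, on either strand, to CCAAT, the box bound by NF-Y, to TTTGAA, the cell cycle homology region, and to the NRF1 motif GCATGCGC. The E2F motifs TTTCCCGC, TTTCGCGC, TTTGCCGC and TTTGGCGC were searched too and had no match in these windows.
Kpna2, chr11:106999476-106999775, minus strand: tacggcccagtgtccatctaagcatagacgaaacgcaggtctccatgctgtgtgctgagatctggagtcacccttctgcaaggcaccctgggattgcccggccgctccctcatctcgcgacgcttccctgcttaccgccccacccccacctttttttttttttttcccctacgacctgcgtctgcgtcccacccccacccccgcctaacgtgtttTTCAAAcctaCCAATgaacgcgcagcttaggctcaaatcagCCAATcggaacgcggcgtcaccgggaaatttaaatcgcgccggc
Kpnb1, chr11:97187843-97188142, minus strand: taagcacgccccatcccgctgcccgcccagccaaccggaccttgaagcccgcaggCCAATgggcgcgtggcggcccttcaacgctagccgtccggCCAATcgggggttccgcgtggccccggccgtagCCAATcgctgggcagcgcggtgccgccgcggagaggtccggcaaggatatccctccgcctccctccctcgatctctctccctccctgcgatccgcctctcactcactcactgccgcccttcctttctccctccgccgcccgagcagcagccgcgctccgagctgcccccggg
Nup107, chr10:117792656-117792955, minus strand: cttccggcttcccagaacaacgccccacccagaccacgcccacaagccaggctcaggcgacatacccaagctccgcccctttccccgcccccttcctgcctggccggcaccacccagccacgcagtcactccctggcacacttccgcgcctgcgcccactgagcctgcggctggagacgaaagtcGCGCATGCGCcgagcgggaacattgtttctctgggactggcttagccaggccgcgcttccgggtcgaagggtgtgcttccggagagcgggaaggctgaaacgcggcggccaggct
Kpna4, chr3:69127043-69127342, minus strand: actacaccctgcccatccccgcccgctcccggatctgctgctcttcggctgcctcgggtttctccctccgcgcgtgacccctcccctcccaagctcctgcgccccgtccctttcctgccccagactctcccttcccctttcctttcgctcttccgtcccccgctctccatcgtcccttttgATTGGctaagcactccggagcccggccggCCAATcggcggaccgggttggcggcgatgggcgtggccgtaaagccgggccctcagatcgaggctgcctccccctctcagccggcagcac

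The Kpna2 window held TTCAAA, the reverse of the cell cycle homology region, at bases 216 to 221 and a CCAAT box right after it at bases 226 to 230, with a second CCAAT box at bases 257 to 261. The Kpnb1 window held 3 CCAAT boxes, that of Kpna4 held 2, and that of Nup107 held the NRF1 motif on both strands, in overlap, at bases 186 to 195. RefSeq promoters of this table matched 20 of the 27 genes, and 18 of these genes passed the filter. Of the matched genes 3 had 2 promoters, and a gene counted if either held the motif. The shares of all promoters count each promoter by itself. TTTGAA was found in 3 of the 18 genes, in Kpna2, Nup37 and Nup98, and in 17.9% of all 32851 promoters of the same length. CCAAT was found in 11 genes and in 37.4% of all promoters. The E2F motifs were found in 1 gene, Nup210, and in 2.26% of all promoters, and the NRF1 motif in 3 genes, Nup107, Nup50 and Nup62, and in 2.71%. Among the 9777 promoters of genes that passed the filter, the shares were 12.5% for TTTGAA, 38.3% for CCAAT, 3.90% for the E2F motifs and 5.43% for the NRF1 motif. Of the 11 genes lower past 1.5-fold 6 held a CCAAT box, and of the other 7 genes 5 did. A match is a run of letters in this window and not a measured binding site.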

How the data were processed

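Liver RNA-seq libraries of WT and KO mice, 1 per genotype, were compared. The FPKM values were deposited by the authors, who aligned reads with TopHat (2.0.0) to NCBI37 (mm9), assembled transcripts with Cufflinks (1.3.0) and ran Cuffdiff. The labels name paired end reads and the paper single end reads. Columns with the authors' own comparison (fold, statistic, p and q) were not used. The 21 of 38016 rows marked HIDATA were left out, and each symbol of a joint row was given its value. Ratios were taken from FPKM as deposited. Log2 values used a pseudocount of 0.1 FPKM and thus understate the difference of low genes, and genes needed a mean FPKM of 1.

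Depth was estimated from low FPKM of single-exon genes, which piled up where 1 fragment on 1 kb was worth 0.0185 FPKM in WT and 0.0182 in KO. An FPKM of 1 on 1 kb thus rested on about 54.1 and 54.9 fragments. Counting intervals are exact (Clopper-Pearson), use the longest transcript of GENCODE vM1 (NCBIM37) and cover counting error only. Coordinates are those of the assembled loci, counted from 1.

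The members, gene lists and motifs were chosen with earlier results of these data known. Named were all members, and of the other transport lists every gene past 1.5-fold and the 3 most abundant. Ranbp2, Nupl2 and Ahctf1, outside this rule, were chosen after their values were seen. Of the proliferation and cell type lists the 3 most abundant genes were named, and Bub1, Mpo, Ly6g and Camp for their value of 0. The steps were tested on simulated data. Scripts ran under Python 3.11.15 with scipy 1.17.1, pandas 2.3.3, matplotlib 3.10.9 and numpy 2.4.6.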

Additional observations from a re-analysis of the deposited data

How the results depend on the processing

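No library could be left out. No paired analysis was possible because each genotype has a single library. The count of 13 nucleoporin and karyopherin genes lower in KO by more than 1.5-fold was between 9 and 13 under each scaling, the looser filters and each handling of the rows, was 6 with a mean FPKM of at least 5 (14.8% of all genes), 6 with a fold of 2 (8.69%) and 22 with the looser fold tried (40.5%). With any value above 0 in both libraries 1 gene, Nup210l, was higher past 1.5-fold. Their median log2 KO/WT of -0.68 moved to -0.44 after centring on the median of all genes and to -0.40 with equal upper quartiles, and stayed between -0.76 and -0.52 under the other settings. The medians of the nucleoporins (-0.74) and of the importin α genes (-0.52) stayed below 0 under every setting tried. Kpna1 and Kpna6 turned to higher in KO after centring and with equal upper quartiles. Of the 52 other pore, transport and envelope genes 23 were lower past 1.5-fold, against 19.9% of all genes. The count was 12 after centring (12.1% of all genes) and 12 with equal upper quartiles (11.3%). It was 8 with a fold of 2 (8.69%) and 36 with the looser fold (40.5%). The depth estimate limits the low genes Nup62cl and Nup210l.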

Other observations

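The nuclear envelope around the pores was measured with a list of 12 lamina and envelope genes, of which 8 were lower in KO by more than 1.5-fold, against 19.9% of all genes, and none was higher past that fold. After centring on the median of all genes 4 of the 12 stayed past 1.5-fold, Lmnb1, Lbr, Tmpo and Syne2, against 12.1% of all genes. The median log2 KO/WT of the list as deposited was -0.72. Lmnb1, which encodes lamin B1, stood at 6.71 FPKM in WT against 0.874 in KO, a ratio of 7.68. Lbr, the lamin B receptor, had 9.44 and 2.21 (4.28), and Tmpo, which encodes the lamina-associated polypeptide 2, had 32.2 and 11.97 (2.69). Syne2, which links the nucleus to actin, had 6.07 and 3.00 (2.02). Lmnb2 (4.36 and 2.53, ratio 1.72), Lmna (27.0 and 16.1, 1.67), Banf1 (53.8 and 32.9, 1.63) and Sun1 (4.04 and 2.59, 1.56) followed. Sun2, the relative of Sun1, was the gene of the list that was higher in KO, with 30.3 in WT and 36.7 in KO. Within the lamins the B1 form thus differed most between these libraries, with 1 library per genotype and no replicate check.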
